A study of Mus musculus with 27 samples.

Results

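Pre-iPSCs are cells caught in a stable state between mouse embryonic fibroblasts (MEFs) and induced pluripotent stem cells (iPSCs). The balance of H3K4me3 and H3K27me3 at their promoters was measured here. The samples were 2 H3K4me3, 2 H3K27me3 and 1 H3K9me3 ChIP-Seq libraries and 2 RNA-Seq libraries of pre-iPSCs, 7 samples of the 27 in the series. They were chosen by cell type and assay alone. For each of 20156 RefSeq genes, the reads of nucleosome calls whose centre lay within 1000 bp of the transcription start site (TSS) were summed. The log2 ratio of H3K4me3 to H3K27me3 was then taken after each library was scaled to its own reads.

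The MEFs came from embryos of e13.5 (the embryonic day), hemizygous for an Oct4-GFP transgene and a Rosa26 allele, of Oct-GFP males (CBA/CaJ × C57BL/6J) and 129Sv/Jae females. Pre-iPSCs and iPSCs were made from such MEFs by retroviral Oct4, Sox2, Klf4 and c-Myc, so both carry all of these alleles and vectors. They were grown with LIF on a layer of mitomycin-inactivated MEFs, and reads of the feeder cells cannot be told apart from theirs. The pre-iPSCs were 2 stable clones, and the clone behind each library is not given in the sources used here. The study calls the replicates biological. Whether they came from separate cultures is not stated, so the p-values measure only the spread between these libraries.

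H3K4me3 is placed by the MLL and SET1 enzymes at the starts of active genes and at most CpG islands. H3K27me3 is placed by EZH2 of Polycomb complex PRC2 and marks silent genes, many of them regulators of development. In embryonic stem cells the 2 marks are known to meet at silent promoters of such regulators, which are called bivalent, and H3K9me3 marks a different, more compact silent chromatin.

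The promoters in which these patterns can be read are shown first as sequence. They are 300 bases of mm9 (250 before to 50 from the TSS on), 5′ to 3′ on the strand of the gene, with every CG dinucleotide in capitals. Tnpo2, an importin that carries proteins into the nucleus, and Atf4, a factor of the stress response, stood at the H3K4me3 end of the ratio. Wnt7b, a Wnt ligand, and Sema5b, a semaphorin of axon guidance, carried both marks. Krt78, a keratin, and Bpifb6, of the BPI-fold family, stood at the H3K27me3 end.
Tnpo2 (H3K4me3 end, chr8:87560817-87561116, plus strand): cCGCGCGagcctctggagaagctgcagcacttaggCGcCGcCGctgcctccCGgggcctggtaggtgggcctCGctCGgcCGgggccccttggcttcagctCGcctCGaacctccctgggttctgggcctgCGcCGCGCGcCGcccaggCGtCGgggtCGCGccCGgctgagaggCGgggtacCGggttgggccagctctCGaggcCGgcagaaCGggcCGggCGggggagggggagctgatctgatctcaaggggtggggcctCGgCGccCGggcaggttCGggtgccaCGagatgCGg
Atf4 (H3K4me3 end, chr15:80085364-80085663, plus strand): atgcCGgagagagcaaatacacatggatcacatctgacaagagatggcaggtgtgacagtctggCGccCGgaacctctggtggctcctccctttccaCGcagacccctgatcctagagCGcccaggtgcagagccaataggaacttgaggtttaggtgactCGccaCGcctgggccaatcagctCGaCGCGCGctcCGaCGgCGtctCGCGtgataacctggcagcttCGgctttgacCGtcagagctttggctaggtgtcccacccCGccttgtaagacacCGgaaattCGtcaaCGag
Wnt7b (both marks, chr15:85408451-85408750, minus strand): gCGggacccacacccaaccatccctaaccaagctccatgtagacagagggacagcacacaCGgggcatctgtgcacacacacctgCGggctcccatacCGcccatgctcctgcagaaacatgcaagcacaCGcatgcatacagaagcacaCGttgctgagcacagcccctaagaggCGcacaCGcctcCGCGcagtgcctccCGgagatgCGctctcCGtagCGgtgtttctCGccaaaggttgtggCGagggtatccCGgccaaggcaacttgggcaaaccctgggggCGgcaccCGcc
Sema5b (both marks, chr16:35541198-35541497, plus strand): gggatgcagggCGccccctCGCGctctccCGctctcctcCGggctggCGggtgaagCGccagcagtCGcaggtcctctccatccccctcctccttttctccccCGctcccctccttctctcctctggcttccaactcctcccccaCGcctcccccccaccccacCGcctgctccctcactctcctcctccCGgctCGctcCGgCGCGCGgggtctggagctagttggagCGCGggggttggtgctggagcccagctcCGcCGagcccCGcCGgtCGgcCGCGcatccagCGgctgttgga
Krt78 (H3K27me3 end, chr15:101784669-101784968, minus strand): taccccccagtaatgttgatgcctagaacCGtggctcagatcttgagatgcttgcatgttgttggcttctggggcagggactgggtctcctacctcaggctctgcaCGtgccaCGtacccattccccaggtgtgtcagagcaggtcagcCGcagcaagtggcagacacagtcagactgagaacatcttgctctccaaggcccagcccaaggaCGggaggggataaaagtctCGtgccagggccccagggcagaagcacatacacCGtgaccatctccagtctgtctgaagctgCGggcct
Bpifb6 (H3K27me3 end, chr2:153725874-153726173, plus strand): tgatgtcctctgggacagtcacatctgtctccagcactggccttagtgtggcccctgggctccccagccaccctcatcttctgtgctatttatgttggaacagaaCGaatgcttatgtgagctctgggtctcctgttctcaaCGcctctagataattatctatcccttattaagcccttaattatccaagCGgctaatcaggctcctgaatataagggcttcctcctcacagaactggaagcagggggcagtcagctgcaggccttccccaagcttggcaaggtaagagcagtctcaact

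These 300 bases held 35 CG in Tnpo2, 22 in Atf4, 19 in Wnt7b, 27 in Sema5b, 8 in Krt78 and 3 in Bpifb6. Of all 20156 promoters of this length, 95.5% held at least 1 CG, and 10.3%, 34.0%, 41.0%, 22.7%, 64.8% and 83.1% held at least as many as these 6 in turn.

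The label pre-iPSC was checked against markers. Fibroblast genes were far below MEFs in both tables. Col1a1, a collagen of connective tissue, was at 93.7 and 27.7 FPKM in pre-iPSCs against 2144 and 1614 in MEFs, and Thy1, a fibroblast surface protein, at 87.1 and 26.3 against 496.0 and 319.2. The genes of the pluripotency list as a whole were not silent, with a median over 30 genes of 2.96 and 1.37 FPKM (0 and 0 in MEFs and 55.4 and 57.4 in iPSCs). Several genes of the naive state were at or near 0. Nanog was at 0.519 and 0 FPKM (49.5 and 73.6 in iPSCs), Zfp42 at 0 and 0.0837 (56.0 and 63.9) and Esrrb at 0.0188 and 0.0335 (52.5 and 52.5), and Dppa3 was listed at 0 in both libraries (11.3 and 41.2). Dppa5a was at 1.70 and 5.01 (724.6 and 841.9 in iPSCs). The epithelial genes Cdh1, Epcam and Krt8 were at 27.01 and 6.56, 34.1 and 6.48, and 14.0 and 20.3 FPKM, against at most 0.672 in MEFs. The factor genes used for reprogramming were high, with Pou5f1 at 377.9 and 3184 FPKM, and reads of the vectors and of the endogenous genes cannot be told apart in these values.

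The H3K4me3 libraries held 13146349 and 12448125 reads in nucleosome calls, the H3K27me3 libraries 14276527 and 13224775, and the H3K9me3 library 12942154. At these depths, 1 RPKM (reads scaled to the length of the window and to the reads of the library) is 24.9 to 28.6 reads. The median promoter had 28 and 25 reads of H3K4me3 and 8 and 7 of H3K27me3, so the second mark rests on few reads at most promoters. Between the replicates, the log2 ratio correlated with a Pearson r of 0.85 across 17285 promoters. The H3 libraries of pre-iPSCs held 108211816 and 67362868 reads and are used as values beside the marks and as limits on the class of both marks.

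Most promoters lay on the H3K4me3 side. Of 17285 promoters with enough reads to test, 10883 had at least 2-fold more H3K4me3 than H3K27me3 (63.0%) and 278 had at least 2-fold more H3K27me3 (1.61%; edgeR quasi-likelihood test, adjusted p below 0.05). The median log2 ratio was 1.87. This median depends on the scaling. With TMM scaling, which sets the middle of the promoters near 0 (median 0.17), 5439 and 5520 promoters were called (31.5% and 31.9%), and DESeq2 with its own size factors called 1258 and 3967 (7.28% and 23.0%). A ratio is therefore read below against the median of 1.87.

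The 10883 promoters at the H3K4me3 end had a median H3K27me3 of 0.210 and 0.189 RPKM, beside 0.280 and 0.265 over all promoters. The 10 promoters with the largest ratios, of 8214 called with more than 1 RPKM of H3K4me3 in both libraries, each had 1 H3K27me3 read over both libraries. Atp6v1a, a subunit of the proton pump of lysosomes whose window also holds the start of Naa50, had 67 and 50 H3K4me3 reads against 1 and 0. The ratio of its summed, scaled reads was 126 (95% exact interval 22.1 to 5007, for counting error only). Tnpo2 had 52 and 44 against 1 and 0, a ratio of 103 (18.1 to 4116), and Atf4 had 48 and 45 against 1 and 0, a ratio of 99.9 (17.5 to 3989). In these 3 promoters both H3K4me3 libraries lay far above both H3K27me3 libraries, which follows from the choice of the largest ratios. The others were Ttc9c (with Hnrnpul2), the ubiquitin ligase Rnf13, the pseudokinase Trib1, Hnrnph1, which binds RNA in splicing, cytoplasmic actin Actg1, and the neighbours Cep57, of the centrosome, and Fam76b. Their ratios lay between 75.2 and 97.8.

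At the H3K27me3 end, ratios were smaller. Of the 278 promoters called, 59 had more than 1 RPKM of H3K27me3 in both libraries. Bpifb6 had 43 and 41 H3K27me3 reads against 14 and 8 of H3K4me3, a log2 ratio of -1.82 (SE 0.35, adjusted p = 5.54e-07, edgeR). Lyzl6, a lysozyme-like gene, had 35 and 27 against 8 and 9 (-1.75, SE 0.39), and the membrane protease Tmprss13 had 37 and 31 against 12 and 7 (-1.72, SE 0.38). In each of these 3, both H3K27me3 libraries lay above both H3K4me3 libraries, which follows from the choice of the largest ratios in this direction. Next came Muc5ac, a secreted mucin (-1.47), Mrgprg, a receptor of the Mas-related family (-1.44), Islr (-1.44), Krt78 (-1.43), the somatostatin receptor gene Sstr3 (-1.41), Pabpn1l, a poly(A)-binding protein (-1.41) and Scn4a, the sodium channel of skeletal muscle (-1.38). Their H3K9me3 was 10 to 24 reads, above the median of 7. Their H3 was 0.697 to 3.76 RPKM in replicate 1 and 0.356 to 0.668 in replicate 2, beside medians of 0.660 and 0.274. In all but Lyzl6 and Mrgprg, H3 of replicate 1 lay above the H3K27me3 of both libraries in RPKM. The part of H3 in these ratios was not tested. Of the 10, 8 were listed at 0 FPKM in at least 1 library of the 2, and only Islr reached 1 FPKM in either (1.08 and 0.212).

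The number called at this end depended on the test, as DESeq2 with the summed reads as size factors called 18 promoters at this end and not 278, beside 9671 at the other.

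**Figure D1:**
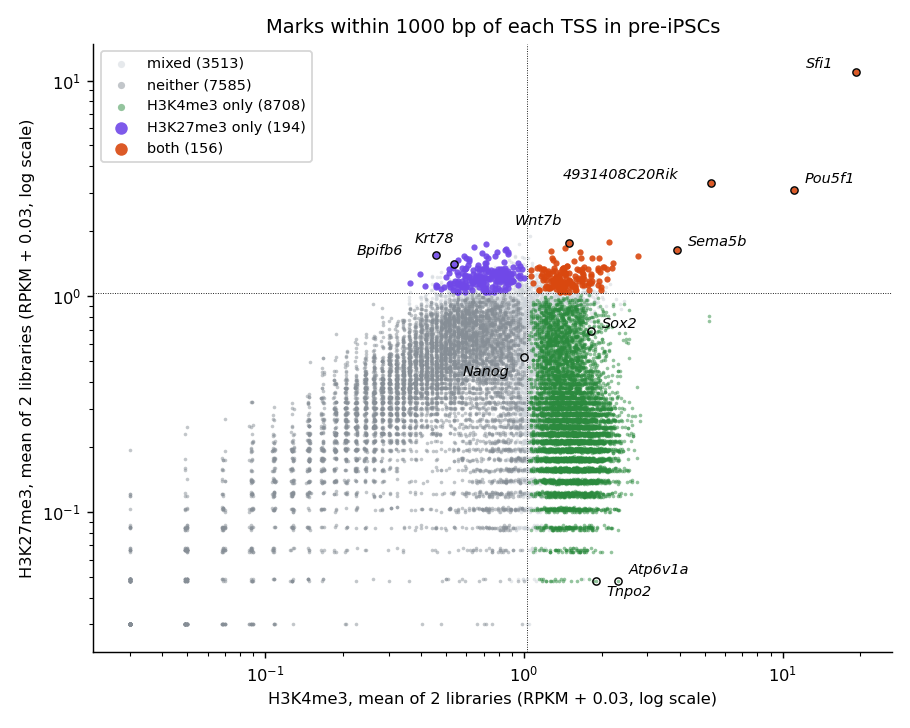
Each point is 1 of 20156 promoters, with the mean H3K4me3 (horizontal) and H3K27me3 (vertical) of the 2 pre-iPSC libraries in RPKM on log scales, coloured by class, and dotted lines mark 1 RPKM. H3K4me3-only promoters (8708) fill the lower right, while promoters of both marks (156) and of H3K27me3 only (194) lie just above the 1 RPKM line apart from Sfi1, Pou5f1 and 4931408C20Rik.

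Promoters were then put in classes, with a mark counted as carried above 1 RPKM in each of its 2 libraries. H3K4me3 only was carried by 8708 promoters (43.2%), H3K27me3 only by 194 (0.962%), both marks by 156 (0.774%) and neither by 7585 (37.6%). The remaining 3513 (17.4%) differed between replicates in at least 1 mark. For H3K27me3, 922 and 979 promoters passed 1 RPKM in the single libraries and 428 in both, against 10622, 10397 and 9187 for H3K4me3. The levels themselves ranked alike between replicates in both marks, with a Spearman rho of 0.82 for H3K27me3 and 0.79 for H3K4me3 over the 17285 promoters tested. The number depends on the threshold, being 3072 at 0.5 RPKM and 3 at 2 RPKM. Just inside it, Kndc1, T and Tspan18 had a lowest value of 1.00 RPKM, and just outside, Acvrl1 and Podxl2 had 0.988 and 1300002K09Rik had 0.983.

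The promoters that carried both marks were led by a few with very many reads. Sfi1, which codes for a centrosome protein, had 544 and 442 H3K4me3 reads and 374 and 234 H3K27me3 reads. Next came 4931408C20Rik (115 and 153, with 85 and 97) and Pou5f1, which codes for Oct4 (325 and 241, with 94 and 76). These 3 were also high in H3K9me3 and H3. Sfi1 had 18.5 RPKM of H3K9me3 and 19.7 and 9.46 RPKM of H3, Pou5f1 8.88 and 14.6 and 4.38, and 4931408C20Rik 3.98 and 2.23 and 3.72, against medians of 0.270 (H3K9me3) and 0.660 and 0.274 (H3) over all promoters. Of the 10 leading promoters, 5 were among the 10 highest of all promoters in H3K9me3 and 5 among the 10 highest in the second H3 library. The part of this shared height in the values of the 2 marks was not tested. At Pou5f1, reads of the endogenous gene, the Oct4-GFP transgene and the retroviral Oct4 cannot be told apart.

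The 5 of the 10 below 1 RPKM of H3 in replicate 2 had H3 of 2.34 to 3.87 RPKM in replicate 1. Accn4, an acid-sensing ion channel, had 1.79 and 1.45 RPKM of H3K4me3 and 1.65 and 1.51 of H3K27me3. Sema5b had 4.03 and 3.73 with 1.40 and 1.81, the GLP-1 receptor gene Glp1r 2.85 and 2.61 with 1.65 and 1.36, Plk5, a polo-like kinase, 2.01 and 1.61 with 1.58 and 1.36, and Wnt7b 1.60 and 1.32 with 1.93 and 1.55. The other 2 of the 10, Heatr7b1 and Trpm8, the cold-sensing channel, had 2.43 and 1.78 RPKM of H3K9me3 and 2.16 and 1.44 RPKM of H3 in replicate 2. They start at 90123595 and 90203287 of chromosome 1, near Ugt1a1 of the same class (90108534). Whether they are separate regions was not tested. Ugt1a1 had 1.78 RPKM of H3K9me3 and 1.80 of H3 in replicate 2. The class had a median log2 ratio of 0.31 against 1.87 over all tested, a range from -0.34 to 1.84, and 2 of 156 promoters called, Sema5b (1.27, SE 0.28) and Pou5f1 (1.84, SE 0.33), both towards H3K4me3. These values hold for scaling by the summed reads. The class was cut from the same counts and needs H3K27me3 above 1 RPKM, so a low ratio follows in part from its rule. Under TMM scaling Sema5b stood at -0.44, Trpm8 at -1.33, Plk5 at -1.41, Heatr7b1 at -1.46 and Accn4 at -1.68.

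Of the 156 promoters, 152 had a lowest value of at most 1.5 RPKM and 9 passed 1 RPKM of H3K9me3. Leaving those 9 out, or the 7 above 1 RPKM of H3 in replicate 2, gave 147 and 149, and 145 had each mark at least 2-fold above that H3 library. Against the H3 library of replicate 1, 0 of the 156 did. These limits were chosen after the data were seen. The class had a median H3 of 1.82 RPKM in replicate 1 and 0.349 in replicate 2, above the 0.660 and 0.274 over all promoters in both libraries. Across the 17285 promoters tested, H3K27me3 rose and fell with H3K9me3 (Spearman rho of 0.66 and 0.62 for the 2 libraries) and with H3 (0.52 and 0.48 for H3 of replicate 1, 0.67 and 0.64 for replicate 2). These points share the gene set, the window and its base composition, so the rho values are descriptions.

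The class held 8 of 88 genes of a list of homeobox genes outside the Hox clusters (Pax2, Msx3, Dlx3, Lhx5, Lhx6, Evx2, Pitx1 and Nkx2-3) and 6 of 61 Wnt, Fgf and Bmp ligand genes, which were all Wnt genes (Wnt1, Wnt6, Wnt7a, Wnt7b, Wnt10a and Wnt10b). The homeobox list was made from symbol patterns and is incomplete, as Lbx1, Gsc2, Cux2 and Prrx2 of the class are homeobox genes that it leaves out. These shares were 9.09% and 9.84%, beside 0.774% of all promoters. It also held 1 of 42 Gata, T-box and Sox factors (2.38%), the mesoderm factor T or Brachyury, 1 of 44 forkhead genes (2.27%), Foxq1, 2 of 38 fibroblast and mesenchymal genes (5.26%), Twist2 and Prrx2, and 8 of 127 ion channel genes (6.30%). None of 39 Hox genes carried both. Lin28a, an RNA-binding factor of stem cells, was with Pou5f1 the only one of 30 pluripotency genes to do so. The lists' members were named after their values were seen.

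**Figure D2:**
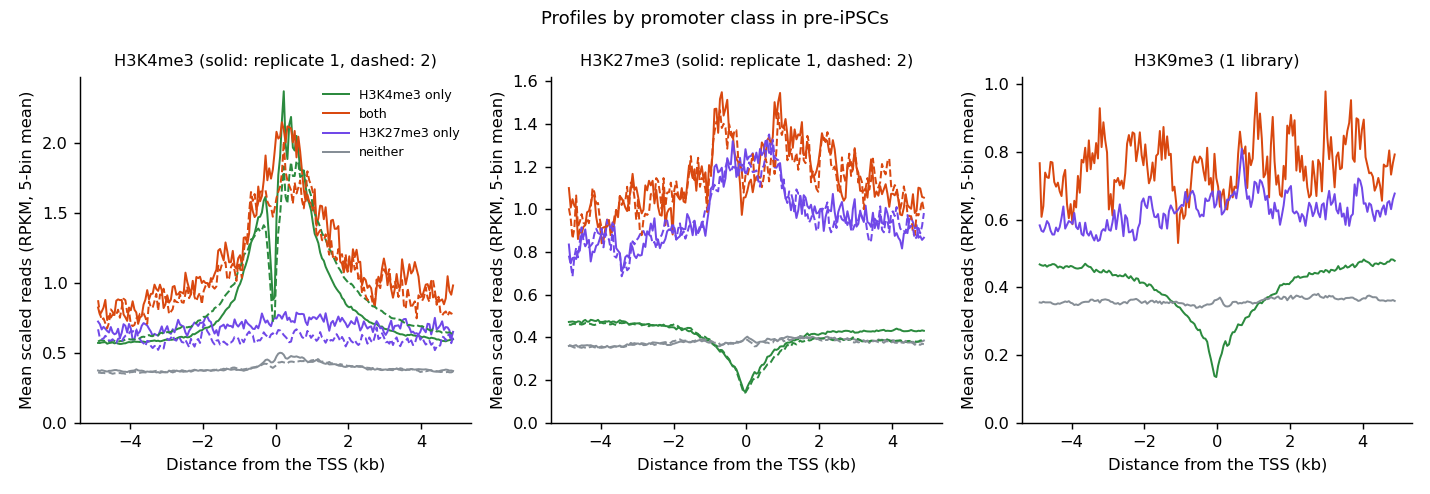
Mean scaled reads (RPKM, running mean of 5 bins of 50 bp) are plotted against distance from the TSS for 4 promoter classes, for H3K4me3 and H3K27me3 in 2 libraries each and for H3K9me3 in 1. H3K4me3-only promoters dip at the TSS in all marks, and promoters of both marks have no such H3K4me3 dip (1.74 and 1.56 RPKM at the TSS against 0.682 and 0.573).

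The classes differed in shape around the TSS. At H3K4me3-only promoters, H3K4me3 was 0.682 and 0.573 RPKM from 150 bp before to 50 bp after the TSS, where active genes are known to lack a nucleosome, and peaked 125 bp after it at 3.78 and 2.70. At promoters of both marks there was no such gap, with 1.74 and 1.56 RPKM at the TSS (1.61 and 1.38 without the 3 promoters above 2 RPKM) between 1.52 and 1.47 upstream and 1.97 and 1.75 downstream, each within 1000 bp. H3K27me3 showed a broad rise in both of its classes. At H3K27me3-only promoters it was 1.25 and 1.19 RPKM at the TSS and 0.828 and 0.827 at 4000 to 5000 bp upstream. At promoters of both marks it was 1.38 and 1.36 RPKM upstream, 1.02 and 1.06 at the TSS and 0.977 and 0.977 in the far flank. At H3K4me3-only promoters H3K27me3 fell to 0.133 and 0.129 RPKM at the TSS from 0.474 and 0.462 in the far flank, and H3K9me3 to 0.118 from 0.463. The class rule used the sum within 1000 bp, so the heights follow from it and the shapes are the description.

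H3K9me3, measured once, was higher in both H3K27me3 classes. Its median was 0.502 RPKM with both marks, 0.656 with H3K27me3 only, 0.348 with neither and 0.232 with H3K4me3 only. It passed 1 RPKM at 9 of 156 promoters of both marks (5.77%) and 9 of 194 with H3K27me3 only (4.64%). With H3K4me3 only it did so at 14 of 8708 (0.161%) and with neither at 18 of 7585 (0.237%), beside 97 of all 20156 (0.481%). Promoters of 1 library are not replicates, so these shares are descriptions. Heatr7b1, Trpm8 and Ugt1a1, which lie near each other on chromosome 1, are all among the 9 of both marks. Among H3K27me3-only promoters, the highest included Ccl22, a chemokine, with 33 reads, 6330406I15Rik and Gm4791 with 28 each and 2300005B03Rik with 27. Of the 9 promoters of both marks above 1 RPKM of H3K9me3, 7 were also above 1 RPKM of H3 in replicate 2. The median H3 of that library was also highest with H3K27me3 only (0.527 RPKM) and lowest with H3K4me3 only (0.230), with 0.349 for both marks and 0.371 for neither. The part of H3 in the H3K9me3 values was not tested. With 1 library there is no replicate check of H3K9me3.

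CpG content, which was not part of the rule, was higher in the 2 classes that carried H3K4me3 than in the other 2. The ratio of observed to expected CpG within 500 bp of the TSS had a median of 0.754 at H3K4me3-only promoters, 0.636 with both marks, 0.239 with H3K27me3 only and 0.216 with neither. A ratio above 0.6, a common mark of a CpG island, was found at 82.5%, 56.4%, 2.58% and 12.1% of the 4 classes, beside 50.1% of all. GC content was 60.5%, 61.9%, 54.2% and 46.9%. In the 300 bases at the TSS printed above for 6 genes, the median number of CG was 23, 20, 5 and 3. Promoters with H3K27me3 alone were thus close to unmarked promoters in CpG and between these and the other 2 classes in GC. Promoters of both marks lay between the H3K4me3-only promoters and all promoters (median 0.601) in CpG. The 3513 promoters that differed between replicates had a median of 0.638, with 54.5% above 0.6, close to those of both marks. The H3 library of replicate 1 had medians of 0.730 RPKM for H3K4me3 only, 1.82 for both marks, 1.92 for H3K27me3 only and 0.323 for neither, the class of lowest GC. The part of GC content in the ChIP values was not tested.

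**Figure D3:**
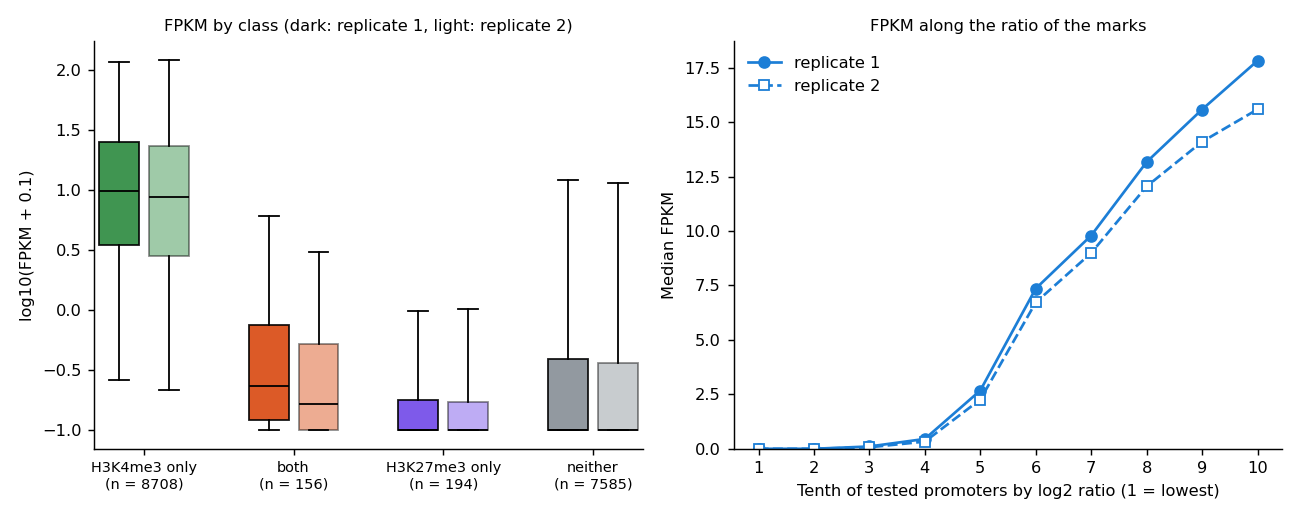
Left, FPKM of genes by promoter class in the 2 RNA-Seq libraries on a log10(FPKM + 0.1) scale, with boxes from the lower to the upper quartile, a line at the median and whiskers at the 5th and 95th percentiles. Right, the median FPKM of genes in deciles of the log2 ratio, which rises from 0 in the lowest 2 deciles to 17.8 and 15.6 in the highest.

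Expression followed the balance of the marks. Median FPKM was 9.69 and 8.71 for H3K4me3 only, 0.135 and 0.0662 for both marks, and 0 in both libraries for H3K27me3 only and for neither. The share of genes at 1 FPKM or more was 87.6% and 85.8% for H3K4me3 only, 20.5% and 11.5% for both marks, 5.15% in both libraries for H3K27me3 only, and 17.7% and 17.0% for neither, beside 53.9% and 52.5% of all genes. Of the 194 genes with H3K27me3 only, 103 were listed at 0 in both libraries. In the single libraries 63.4% and 60.8% of them were at 0, near the 57.3% and 58.2% with neither mark, beside 25.9% and 26.6% of all genes. Across 17285 genes, the log2 ratio ranked with FPKM (Spearman rho of 0.75 in both replicates), more closely than H3K4me3 alone (0.59 and 0.56) and, in the other direction, H3K27me3 alone (-0.66 and -0.67). Among genes of at least 0.5 FPKM, the rho of the ratio was 0.43 and 0.42, lower than over all genes.

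Of the genes with both marks, 16 of 156 reached 1 FPKM in both libraries and 24 were listed at 0 in both. In the single libraries 19.2% and 29.5% were at 0, near the 25.9% and 26.6% of all genes. The highest was Pou5f1, followed by 1190007F08Rik (14.2 and 13.0 FPKM), Mdfi, an inhibitor of muscle factors (9.60 and 5.08), Nkain1 (12.0 and 2.22) and Twist2 (8.71 and 2.95). The 2 libraries differed widely for Nkain1 and Pou5f1.

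Gene groups lay at different places along the ratio. Among 82 genes of cytoplasmic ribosomal proteins, 81 were tested, 79 were called towards H3K4me3 (97.5%, beside 63.0% of all promoters) and 0 towards H3K27me3 (1.61% of all), with a median log2 ratio of 3.52 against 1.87 over all. Rps29 had 33 and 33 H3K4me3 reads and 0 and 1 of H3K27me3. Its relatives Rpl3l and Rpl39l, copies used in few tissues, had log2 ratios of -0.26 and 0.19 and were not called, with Rpl39l at -1.52 under TMM scaling. Proteasome subunits (36 of 38, median 3.30) and subunits of oxidative phosphorylation (77 of 80, 3.11) were also above the median of all promoters. Psmb11 of the thymus proteasome (-0.39) and Cox6a2 of muscle (-0.61) were not called. Of the enzymes of the marks, 17 of 18 H3K4 methylation and demethylation genes (3.24) and 27 of 30 polycomb and H3K27 demethylase genes (2.55) were called towards H3K4me3. By class, 12 of the 18 and 19 of the 30 had H3K4me3 only, and 2 and 5 had neither mark. Zfp genes were called in 281 of 307 (2.62) and cell cycle inhibitors in 5 of 6, with Cdkn1b at 4.00 and Cdkn1a at 3.95. Under TMM scaling, where 31.5% of all promoters were called towards H3K4me3 and 31.9% towards H3K27me3, the counts in the 2 directions were 69 and 2 for ribosomal protein genes, 29 and 2 for proteasome subunits, 49 and 3 for oxidative phosphorylation, 12 and 1 for H3K4 enzymes, 12 and 3 for polycomb genes, 3 and 0 for cell cycle inhibitors and 126 and 20 for Zfp genes.

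Regulators of development lay below the median of all promoters. Hox genes had a median of 1.23, with 24 of 39 called towards H3K4me3 (61.5%, close to the 63.0% of all promoters) and none towards H3K27me3. Hoxa2 (53 and 60 H3K4me3 reads, 2 and 5 of H3K27me3) stood at 4.07 (SE 0.43), whereas Hoxb1 (26 and 24, 32 and 33) and Hoxd12 (13 and 23, 38 and 27) had H3K27me3 only, with ratios of -0.27 and -0.74. Gata, T-box and Sox factors had a median of 0.95 (19 called towards H3K4me3 and 1 towards H3K27me3 of 40), other homeobox genes 0.83 (36 and 0 of 87), forkhead genes 0.81 (19 and 1 of 43), and Wnt, Fgf and Bmp ligands 0.61 (17 and 2 of 59). Fgf21 and Fgf6, both growth factors of few tissues, were those 2, at -1.31 and -1.13. The last 4 groups had 47.5%, 41.4%, 44.2% and 28.8% called towards H3K4me3. Under TMM scaling the calls towards H3K4me3 and H3K27me3 were 1 and 9, 3 and 12, 4 and 36, 6 and 16, and 0 and 33 in the 5 groups. For Hox genes and for Gata, T-box and Sox factors the calls towards H3K27me3 were no larger a share than the 31.9% of all promoters. The median H3K27me3 of each of the 5 groups was above that of all promoters, at 0.718 RPKM for homeobox genes and 0.280 over all in replicate 1, beside H3 of 1.27 and 0.660 in replicate 1 and 0.245 and 0.274 in replicate 2.

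Keratins and olfactory receptors had the lowest medians of the 20 groups. Ion channel genes had a median of 0.42 (29 towards H3K4me3 and 2 towards H3K27me3 of 125), clustered protocadherins 0.72 (12 and 0 of 42), germline genes 0.21 (4 and 0 of 25), olfactory and vomeronasal receptors -0.21 (7 and 21 of 350) and keratins -0.45 (6 and 5 of 74). Krt19, a keratin of simple epithelia at 95.6 and 231.5 FPKM, was an exception at 1.89. Only 350 of 1411 receptor genes had enough reads to test. Fibroblast and mesenchymal genes had a median of 0.66 (14 and 0 of 36), epithelial junction genes 1.25 (16 and 0 of 25) and pluripotency genes 1.33 (17 and 1 of 28). The share called towards H3K4me3 was 64.0% and 60.7% in the last 2, near the 63.0% of all promoters, and 38.9% in the fibroblast genes. Towards H3K27me3, 6.00% of the tested receptors and 6.76% of the tested keratins were called, beside 1.61% of all promoters tested. Over all measured genes these were 21 of 1411 receptors and 5 of 97 keratins, beside 278 of 20156 promoters. The filter can be passed on the reads of 1 mark alone, so the shares of those tested depend in part on it. The median H3K27me3 of all 1411 receptors was 0.245 and 0.265 RPKM, beside 0.280 and 0.265 over all promoters. Their median H3K4me3 was 0.228 and 0.241 RPKM, beside 1.06 and 1.00, and 1397 carried neither mark. Keratins had medians of 0.490 and 0.491 RPKM of H3K27me3 and 0.494 and 0.401 of H3K4me3. Under TMM scaling the calls towards H3K4me3 and H3K27me3 were 0 and 333 for receptors, 0 and 66 for keratins, 1 and 81 for ion channels, 0 and 21 for protocadherins, 0 and 18 for germline, 4 and 18 for fibroblast, 1 and 5 for epithelial and 3 and 7 for pluripotency genes. The called H3K27me3 member of the last group was Esrrb, an orphan nuclear receptor of stem cells, with 39 and 29 H3K27me3 and 16 and 15 H3K4me3 reads (-1.02, SE 0.34, adjusted p = 0.00437, edgeR).

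**Figure D4:**
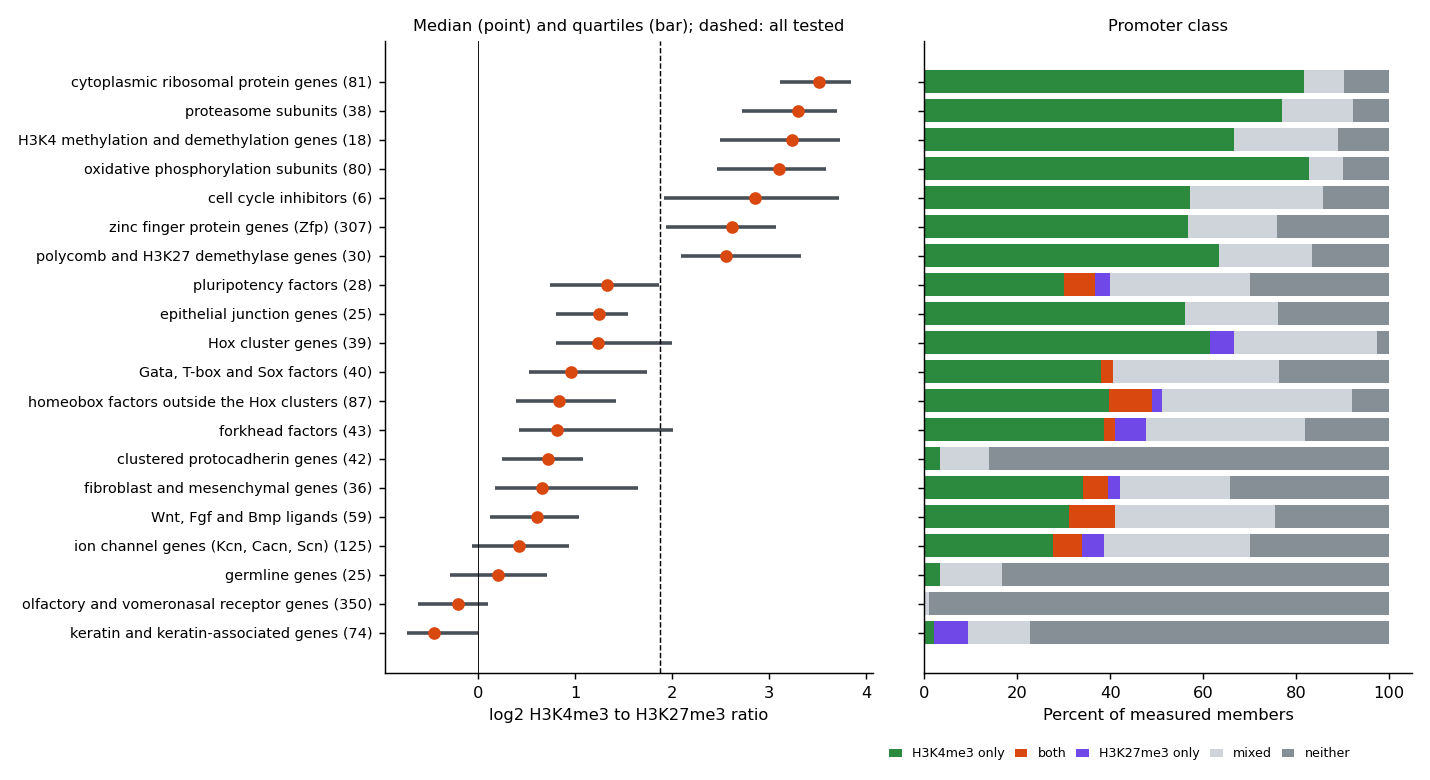
Left, the median (point) and quartiles (bar) of the log2 H3K4me3 to H3K27me3 ratio for 20 gene groups, with the number tested and, dashed, the median of 1.87 over all promoters tested. Right, the percent of measured members in each promoter class. Housekeeping groups lie at 3.11 to 3.52 and keratins at -0.45.

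The genes of reprogramming were in different states. Sox2 (53 and 39 H3K4me3, 17 and 19 H3K27me3 reads), Klf4 (33 and 31, 6 and 16) and Myc (55 and 52, 11 and 20) had H3K4me3 only, with log2 ratios of 1.45, 1.63 and 1.88. Sox2 and Klf4 lie below the median of 1.87 over all promoters and turn to -0.26 and -0.07 under TMM scaling. Sox2, Klf4 and Myc were also delivered by retrovirus, and any reads of the vectors cannot be told apart in these values. Tcfcp2l1, a factor of naive pluripotency, also had H3K4me3 only (35 and 43, 18 and 18, ratio 1.21, and -0.49 under TMM scaling) at 1.35 and 0.939 FPKM. The silent Nanog had 30 and 20 H3K4me3 and 15 and 12 H3K27me3 reads, with 28 of H3K9me3, and passed 1 RPKM in 1 H3K4me3 library only. Zfp42 (12 and 13, 4 and 8), Dppa3 (23 and 11, 14 and 11) and the germ cell helicase gene Ddx4 (21 and 17, 14 and 13) had neither mark at 1 RPKM. So did the fibroblast genes Col1a1 (23 and 22, 20 and 20), Inhba (16 and 10, 12 and 19) and Vcam1 (10 and 14, 14 and 11), while Tgfb1 (39 and 27, 17 and 22) had H3K4me3 only. Setdb1, an H3K9 methyltransferase, with 8 and 9 H3K4me3 reads and Trap1a with 8 and 10 had too few reads to test.

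To see where the balance differed from the other cells, the log2 ratio in pre-iPSCs was compared with that in MEFs and in iPSCs by an interaction term in 1 edgeR fit of 12 libraries. Against MEFs, 318 of 18425 promoters had a ratio higher by at least 2-fold (1.73%) and 1055 a lower one (5.73%). DESeq2 with the summed reads as size factors called 58 and 263, and edgeR without 1 library called 167 to 323 and 571 to 1447. The median difference was -0.47, and with TMM scaling the counts were 939 and 548, so the split between directions rests on the scaling. MEFs were also digested with more nuclease for a shorter time than pre-iPSCs and iPSCs, and grown in another medium. These differences cannot be told apart from the cell type in this comparison.

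The lower ratios included much of the fibroblast programme. Of 38 fibroblast and mesenchymal genes tested, 25 were lower in pre-iPSCs and none higher, beside 5.73% of all promoters lower. Under TMM scaling 21 were lower and none higher, beside 548 lower of all 18425 promoters. Inhba, the inhibin beta A subunit, had 2.96 and 1.14 RPKM of H3K4me3 in MEFs and 0.608 and 0.401 in pre-iPSCs, with H3K27me3 at 0.0374 and 0.230 in MEFs and 0.420 and 0.718 in pre-iPSCs. Both marks moved without overlap between these libraries, and the ratio differed by -3.98 (SE 0.66, adjusted p = 1.79e-06, edgeR). Col1a1 went from 2.08 and 2.05 to 0.874 and 0.883 RPKM of H3K4me3 and from 0.150 and 0.164 to 0.700 and 0.756 of H3K27me3 (-3.40, SE 0.61). Col1a2 (-3.73), Vcam1 (-3.61), Twist1 (-3.47), Tgfb1 (-3.42) and Col3a1 (-2.95) were also lower. The 5 lowest by the fit, Zfp948, Ammecr1l, Zfyve16, Rgl2 and Cggbp1, had no H3K27me3 read in either MEF library, so that no fold is given for them. Their H3K27me3 in pre-iPSCs was 0.0378 to 0.315 RPKM.

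The higher ratios included stem cell and epithelial genes. Tdgf1, the Nodal co-receptor Cripto, had 1.29 and 1.53 RPKM of H3K4me3 in pre-iPSCs and 0.624 and 0.433 in MEFs, with H3K27me3 at 0.0700 and 0.151 against 0.935 and 0.821 (difference 4.36, SE 0.65, adjusted p = 1.03e-07, edgeR). L1td1, an RNA-binding gene of stem cells, had 1.67 and 1.57 against 0.624 and 0.315, and 0.140 and 0.0756 of H3K27me3 against 0.823 and 0.821 (4.65, SE 0.65). Of 30 pluripotency genes tested 7 were higher and 2 lower, and of 25 epithelial junction genes 6 and none, Krt8 among them (2.16, SE 0.62), beside 1.73% higher and 5.73% lower of all promoters. Under TMM scaling these were 13 and 1, and 14 and none, beside 939 higher and 548 lower of all 18425 promoters. Nanog (1.48, SE 0.53) did not pass, with an adjusted p of 0.0655. Pou5f1 was called higher (1.95, SE 0.58), but the MEF libraries differed, with 4.58 and 0.118 RPKM of H3K4me3. The other 3 of the 5 highest were Cenpi and Nkrf, which had no H3K27me3 read in either pre-iPSC library, and Ceacam1, at 0.152 and 0.401 RPKM of H3K4me3 against 0.0416 and 0 in MEFs.

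RNA, which the ratio did not use, differed in the same direction at part of the promoters whose ratio differed from MEFs. On the log2(FPKM + 1) scale, 153 of the 318 promoters with a higher ratio had at least 2-fold more RNA in pre-iPSCs than in MEFs in both tables (48.1%) and 1 had less, beside 5.58% and 6.95% of all tested. Of the 1055 with a lower ratio, 434 had at least 2-fold less RNA (41.1%) and 8 had more. Of the class of both marks, 7 promoters were higher and 9 lower (4.49% and 5.77% of 156), and of the H3K27me3-only class 0 and 6 (3.09% of 194 lower), beside 1.73% and 5.73% of all tested. The classes were cut from the same pre-iPSC libraries as the ratio, so these counts depend in part on their rule. By the same rule on MEF libraries, 199 of 20156 promoters carried both marks in MEFs and 39 in both cells, 25% of the pre-iPSC class and 19.6% of the MEF class. A further 64 of the pre-iPSC class (41.0%) differed between the MEF replicates in at least 1 mark, beside 2503 of all 20156 promoters.

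Against iPSCs far fewer promoters differed, 36 higher (0.195%) and 11 lower (0.0597%) of 18425, and these counts are fragile. DESeq2 called none in either direction with its own size factors (1030 at an unadjusted p below 0.05) or with the summed reads (722), and edgeR called none without the H3K27me3 library of pre-iPSC replicate 2 (1388 at an unadjusted p below 0.05). Of the 36, 34 were H3K4me3-only promoters of pre-iPSCs, a class of 8708 of the 18425 tested (0.390% of the class, beside 0.195% of all). The class was cut from the same pre-iPSC libraries as the ratio, so this share follows in part from its rule. Meis2, a homeobox factor, had 1.98 and 1.53 RPKM of H3K4me3 and 0.0350 and 0.0756 of H3K27me3 in pre-iPSCs, and 0.807 and 1.62 with 0.573 and 0.480 in iPSCs. Its H3K27me3 did not overlap between the cells whereas its H3K4me3 did (difference 3.70, SE 0.77, adjusted p = 0.00738, edgeR). Pax6, a factor of eye and brain, had 1.63 and 1.12 with 0.105 and 0.0378 against 1.19 and 0.852 with 0.824 and 0.369 (3.40, SE 0.73, adjusted p = 0.00936), and 4.42 and 7.10 FPKM against 2.09 and 4.91. The other 3 were Zadh2 (3.55), Cd80, a ligand of T cells (3.49), and Srpk2, a kinase of splicing factors (3.41). Of the 36 genes, 28 had at least 2-fold more RNA in pre-iPSCs in both tables (77.8%, beside 4.92% of all tested) and none had less.

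The 5 lowest against iPSCs were Spp1, which codes for osteopontin (-3.39), Hhex, an endoderm homeobox factor (-2.71), Mip of the lens (-2.65), Gm7325 (-2.53) and Cacng6 (-2.46). Hhex had 1.48 and 0.843 RPKM of H3K4me3 with 0.525 and 1.096 of H3K27me3 in pre-iPSCs, and 2.42 and 1.79 with 0.215 and 0.222 in iPSCs (SE 0.58, adjusted p = 0.00907, edgeR). Neither mark overlapped between the cells. Hhex and Meis2 were named for their large differences, so such separation follows in part from the choice. Gm7325 was at 0 and 0.102 FPKM in pre-iPSCs and 79.3 and 28.9 in iPSCs. Of the 11 genes, 5 had at least 2-fold less RNA in pre-iPSCs in both tables (45.5%, beside 3.28% of all tested). Spp1 did not follow, with 496.4 and 144.5 FPKM in pre-iPSCs and 114.8 and 278.4 in iPSCs. Both marks were carried by 205 promoters of iPSCs, and 42 were shared, 26.9% of the pre-iPSC class and 20.5% of the iPSC class. No promoter of the class carried neither mark in iPSCs by that rule, beside 7404 of all 20156 promoters. H3K4me3 only was carried by 44 (28.2%), beside 8493 of all 20156, so this is no larger a share than that of all promoters. The other 70 (44.9%) differed between the iPSC replicates in at least 1 mark, beside 3993 of all 20156 promoters.

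**Figure D5:**
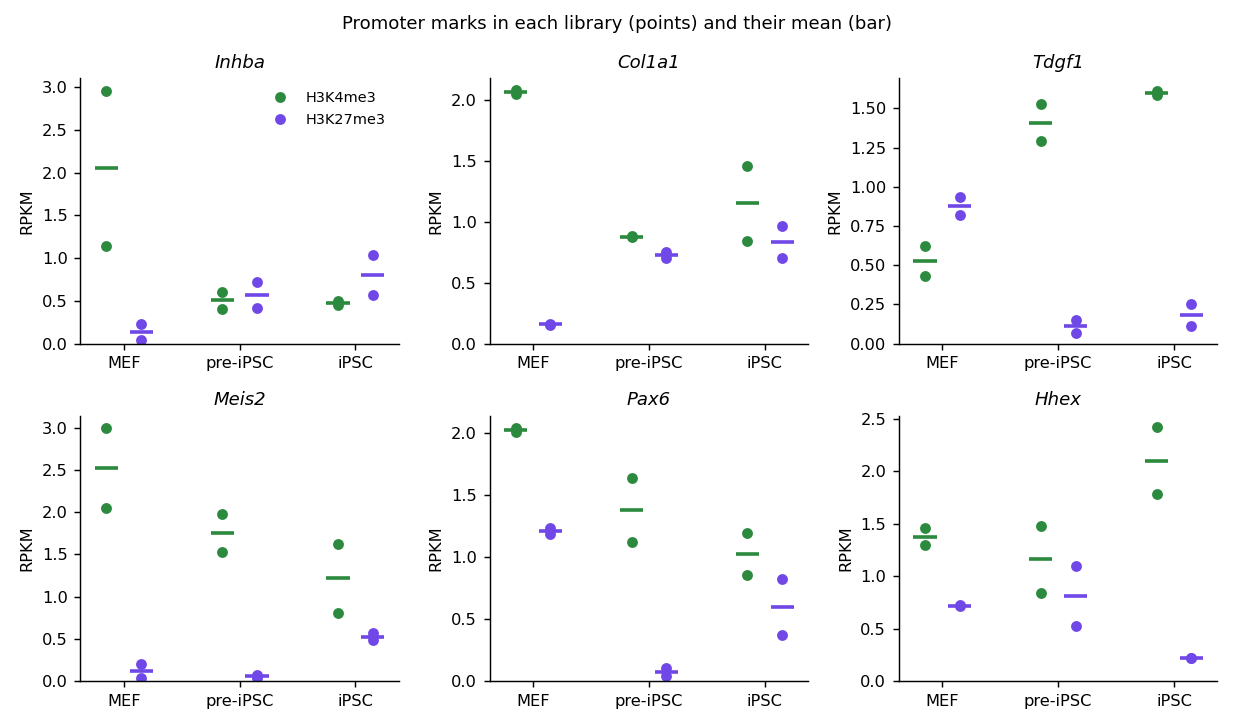
H3K4me3 and H3K27me3 within 1000 bp of the TSS of 6 genes (RPKM, vertical) in MEFs, pre-iPSCs and iPSCs, with a point per library and a bar at the mean of 2. Inhba and Col1a1 have less H3K4me3 and more H3K27me3 in pre-iPSCs than in MEFs, Tdgf1 the reverse, and Meis2, Pax6 and Hhex differ in H3K27me3 between pre-iPSCs and iPSCs.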

How the data were processed

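Chromatin was cut with micrococcal nuclease, with more enzyme for a shorter time in MEFs than in pre-iPSCs and iPSCs. ChIP-Seq reads were mapped by the authors (Bowtie, mm9) and those mapping once, with at most 2 mismatches, were kept. After a shift of 73 bp towards the dyad, GeneTrack was used for nucleosome calling. The deposited counts are the reads of each call, and reads outside calls were not used here. The authors made the deposited FPKM with TopHat2 (2.0.4 in the submitters' notes) and Cuffdiff.

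Counts within 1000 bp of a TSS were tested with edgeR 4.0.16 (filterByExpr, summed reads as library size, false discovery rate 0.05, at least 2-fold), with DESeq2 1.42.0 as an alternative. The tests were run on simulated counts first. RPKM was scaled to the window and to all reads in calls of a library. CpG was read from mm9.

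The members, gene lists and tests were chosen with earlier results of these data known. Genes were named as the 10 largest ratios at each end, the 10 promoters of both marks with the highest lowest RPKM, genes the study names, at most 4 extremes per list, the 5 largest interactions per direction, and the 5 highest in H3K9me3 or FPKM per class. Same-numbered libraries did not deviate together (Pearson r of 0.02), so no block was used. Alternatives were other scalings, filters, windows and thresholds, and each library left out. The H3 and H3K9me3 data of MEFs and iPSCs were not used. One gene that the naming rule selects is not reported here.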

Additional observations from a re-analysis of the deposited data

Results flagged for a closer look

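The balance of H3K4me3 and H3K27me3 was tested between cell types by an interaction term in edgeR, and the promoters that differed are listed for that reason. Against MEFs, 318 promoters had a higher ratio in pre-iPSCs and 1055 a lower one. Those with the largest fitted differences had adjusted p-values (edgeR) of 0.0014 for Zfp948, 0.00274 for Ammecr1l, 0.00223 for Zfyve16, 0.0038 for Rgl2 and 0.00996 for Cggbp1 among the lower. Among the higher these were 0.015 for Cenpi, 0.00416 for Ceacam1, 0.0338 for Nkrf, 2.31e-08 for L1td1 and 1.03e-07 for Tdgf1. Zfp948, Ammecr1l, Zfyve16, Rgl2 and Cggbp1 had no H3K27me3 read in MEFs, and Cenpi and Nkrf had none in pre-iPSCs.

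Against iPSCs, 36 promoters had a higher ratio and 11 a lower one. The adjusted p-values (edgeR) were 0.00738 for Meis2, 0.0233 for Zadh2, 0.0253 for Cd80, 0.00947 for Srpk2 and 0.00936 for Pax6 among the higher. Among the lower they were 0.00738 for Spp1, 0.00907 for Hhex, 0.00663 for Mip, 0.0233 for Gm7325 and 0.0144 for Cacng6. DESeq2 called none of the promoters of this contrast.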

How the results depend on the processing

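The split of the calls differed with the scaling and with the test. In pre-iPSCs, TMM gave 5439 promoters towards H3K4me3 and 5520 towards H3K27me3, DESeq2 with its own size factors 1258 and 3967, and DESeq2 with the summed reads 18 towards H3K27me3. A window of 2000 bp gave 155 of these. Leaving out 1 library gave 10704 to 11016 and 225 to 483, the highest without H3K4me3 replicate 1. Against MEFs, the counts of higher and lower ratios were 939 and 548 with TMM, 490 and 192 with DESeq2's own size factors, 58 and 263 with the summed reads, 52 and 164 at 500 bp and 680 and 2962 at 2000 bp. They ran from 167 to 323 and from 571 to 1447 without 1 library. Against iPSCs they were 0 and 0 with DESeq2 in both settings, 2 and 0 at 500 bp and 165 and 42 at 2000 bp. TMM gave 35 lower, and leaving out 1 library 0 to 49 higher and 0 to 17 lower.

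The replicate numbers are shared between the marks without pairing the libraries. With a replicate block, 10886 and 279 promoters were called in pre-iPSCs, 359 and 1142 against MEFs and 54 and 21 against iPSCs.

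Promoters of both marks numbered 3072 at 0.5 RPKM, 3 at 2 RPKM, 500 from calls of at least 2 reads, 0 with each mark at least 2-fold above H3 of replicate 1, and 177 to 360 without 1 library. H3K9me3 passed 2 RPKM at 2.56% of promoters of both marks and at 0% of the other 3 classes, and at 2000 bp it passed 1 RPKM at 1.48% with H3K27me3 only and 0.0107% with neither. The share of genes at 1 FPKM or more was 66.7% for both marks, 91.5% for H3K4me3 only and 50.2% for neither with classes at 2 RPKM, where no promoter had H3K27me3 only. With classes at 0.5 RPKM it was 90.9% for H3K4me3 only, 5.16% for H3K27me3 only and 6.23% for neither, and without windows that meet another TSS 5.21% for H3K27me3 only. The rho of the ratio with FPKM was 0.75 in replicate 1 with a prior of 5 reads, 0.70 in both replicates at 500 bp, 0.77 at 2000 bp, and 0.43 and 0.42 among genes of at least 0.5 FPKM. The replicate r was 0.87 with a prior of 5 reads.

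Of log2 ratios in pre-iPSCs, those that were called in either setting and changed sign did so under TMM and DESeq2's own size factors, with 4931408C20Rik at -1.05 and -1.08, Heatr7b1 at -1.46 and -1.49, Accn4 at -1.68 and -1.71, Trpm8 at -1.33 and -1.36, Sema5b at -0.44 and -0.47, Plk5 at -1.41 and -1.45, Sox2 at -0.26 and -0.30, Klf4 at -0.074 and -0.12, Col1a1 at -1.44 and -1.47, Tcfcp2l1 at -0.49 and -0.52, Krt8 at -0.45 and -0.50 and Rpl39l at -1.52 and -1.57 in turn, and under TMM Zfp42 at -0.55, Dppa3 at -1.17, Ddx4 at -1.11 and Vcam1 at -1.66. With DESeq2's own size factors Dppa3, Ddx4 and Vcam1 also turned below 0 without a call, and Zfp42 had no value.

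The causes of these shifts were not tested. Precision is limited by H3K27me3 depth, with a median of 8 and 7 reads per promoter.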
